A study of Sus scrofa with 9 samples.

Results

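The data below describe 10 genes that encode the core proteins of valve matrix proteoglycans. They were taken by symbol from the 19535 gene rows of a count table: the hyalectans VCAN (versican) and ACAN (aggrecan), and the small leucine-rich proteoglycans DCN (decorin), BGN (biglycan), LUM (lumican), FMOD (fibromodulin), PRELP (prolargin), OGN (osteoglycin), ASPN (asporin) and PODN (podocan). All 10 passed the filter on low counts, which kept 13662 genes for testing. In a proteoglycan, chains of repeating sugars are attached to a core protein. Versican and aggrecan bind hyaluronan and carry many chondroitin sulfate chains, which hold water in the middle layer of the valve leaflet. The small leucine-rich proteoglycans bind collagen fibrils and take part in setting their width and spacing, and several of them bind growth factors of the TGF-beta family.

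RNA was sequenced from porcine valvular interstitial cells (PVICs), the fibroblast-like cells of the aortic valve, in 3 groups of 3 libraries. The cells came from wild-type pigs aged 4 to 5 months, after the endothelium had been scraped from the leaflets. The control group was kept in DMEM for 3 days. The OIM group was kept for 3 days in an osteogenic medium with insulin, ascorbic acid (50 µg/mL) and added phosphate (2 mmol/L), used to induce calcium deposition. The bFGF group received the same medium together with 50 ng/mL basic fibroblast growth factor. The bFGF group therefore shares the osteogenic medium with the OIM group, and by the labels these groups differ only in the growth factor. These are cells in culture on dishes, without the layers or the load of a leaflet. The labels do not say whether the libraries of a group came from separate pigs or cultures, so the p-values measure the spread between these libraries, which may be technical. As the samples are bulk RNA, fewer cells of a type and less RNA per cell cannot be told apart.

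The control and OIM libraries held 57075793 to 67371523 gene counts each, and the bFGF libraries 46773376 to 48270827. Of these, the 10 genes together took 1.28% to 1.37% in control and OIM and 0.860% to 0.888% with bFGF. Levels are given as CPM, counts per 1000000 counts on library sizes scaled by TMM. A gene was called where its p from the quasi-likelihood test of edgeR, adjusted by Benjamini-Hochberg over all genes tested, was at most 0.05 and its log2 fold change was 0.5 or more in size. OIM replicate 2 stood apart from the other OIM libraries: its mean chi-square per gene against them was 18.4 in both pairs, where other pairs of replicates gave 4.64 to 11.3. The interstitial markers VIM, COL1A1 and COL3A1 were abundant in all libraries, with at least 5499 CPM for VIM.

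VCAN was the only member with circular RNAs closed at annotated exon boundaries, and their junctions are shown first. VCAN lies on the plus strand of chromosome 2, at chr2:91682177-91811674 in Sscrofa11.1. Its exon 7 (chr2:91746365-91749304, 2940 bases) and exon 8 (chr2:91768020-91773257, 5238 bases) encode the stretches that carry the chondroitin sulfate chains, and alternative use of them gives the versican isoforms. Of 4 coding transcripts annotated by RefSeq, 2 hold both exons, 1 lacks exon 7 and 1 lacks exon 8. Circular RNAs, also counted in the deposited table, form when the end of an exon is joined backwards to the start of the same or an earlier exon. Of 12 circles listed inside VCAN, 11 lay on its strand and 5 began at the start of exon 8. The circle on the other strand had neither end at an exon boundary. Among the 11, 1 circle with 2 counts in 1 library began inside exon 8 and not at an exon start. The junctions of the most counted pair, with 239 and 114 counts in all 9 libraries, are shown because they are the reads that tell a circle from the linear transcript. Each line has 15 bases from the end of the closing exon in lower case, followed by the first 15 bases of exon 8 in capitals, on the strand of the gene.
exon 8 circle, chr2:91768020-91773257: caatctatttaccagGTCGAATGAGTGATT
exon 8 to exon 12 circle, chr2:91768020-91784772: gatggcagcacactgGTCGAATGAGTGATT
Neither run of bases occurs unbroken within the gene. In the genome, GT follows both closing exons and AG precedes exon 8, the usual ends of introns.

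The first comparison asked how the osteogenic medium alone moved these transcripts. ACAN was higher in OIM and the other 9 genes had no call. That is 1 of 10 called higher, where 1.49% of all genes tested were, and 0 of 10 called lower by edgeR and by DESeq2, where 0.864% and 0.967% of all genes were. DESeq2 called 2 higher (ACAN and PODN), where 1.75% of all genes were. At an unadjusted p under 0.05, 4 members were higher, where 14.2% of all genes were, and 3 lower, where 12.0% were. The median log2 fold change of the 10 genes was 0.024, against -0.0019 over all genes tested. At the adjusted p alone, which 13.6% of all genes met, DCN, LUM and OGN were lower and ACAN and PODN were higher. In 3 members (DCN, LUM and OGN) every OIM library lay below every control library, which held for 14.2% of genes tested. In 1 (ACAN) every OIM library lay above, which held for 14.5%.

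The second comparison, between the bFGF and OIM groups, asked what the growth factor did in that medium. With bFGF, 8 of 10 members fell, where 18.4% of all genes tested did, and 0 rose, where 17.7% did (edgeR). DESeq2 gave the same counts, where 16.7% of all genes fell and 16.2% rose. At an unadjusted p under 0.05, 9 members were lower and 0 higher, where 34.9% and 35.0% of all genes were. Those that fell were VCAN, ACAN, DCN, BGN, FMOD, OGN, ASPN and PODN, and their falls ran from 1.42-fold (BGN) to 13.8-fold (PODN). PRELP missed the fold limit and LUM differed by less than the spread between libraries. In 9 of 10 members, all but LUM, every bFGF library lay below every OIM library, which held for 35.8% of genes tested. The median log2 fold change of the 10 genes was -0.99, against -0.0029 over all genes. The plot of CPM in each library shows how far the groups were apart.

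**Figure D1:**
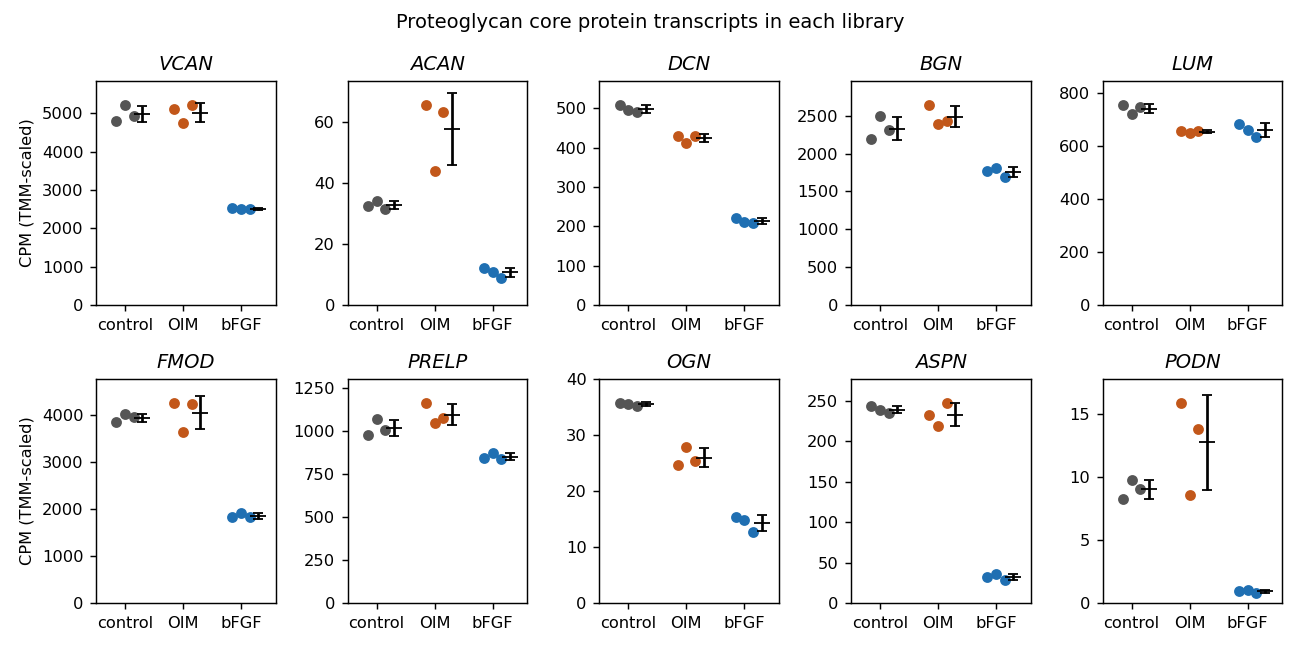
CPM (TMM-scaled, linear axis from 0) of each of the 10 genes in the control, OIM and bFGF groups; each point is a library and the bar beside it the mean with its SD (n = 3). The bFGF points lie below all other points for every gene except LUM, where they overlap the OIM points.

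Among the hyalectans, VCAN, the large hyaluronan-binding proteoglycan of the valve, had 4805, 5216 and 4930.4 CPM in the control libraries. It had 5102, 4750 (OIM replicate 2) and 5204 CPM in the OIM libraries, and 2546, 2505 and 2495 CPM in the bFGF libraries. Control and OIM libraries overlapped, and the bFGF libraries stood apart below both. VCAN differed by 0.010 ± 0.037 (log2 fold change ± SE) between OIM and control (adjusted p = 0.904). It fell by 0.997 ± 0.037 on the log2 scale with bFGF, or 1.995-fold (adjusted p = 7.27e-15).

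ACAN, the main proteoglycan of cartilage, had 32.5, 34.0 and 31.3 CPM in the control libraries. The OIM libraries had 65.4, 43.9 and 63.3 CPM, and the bFGF libraries had 12.1, 10.96 and 9.003 CPM. No groups overlapped, although OIM replicate 2 lay between the control libraries and the other OIM libraries. ACAN rose by 0.82 ± 0.11 in OIM against control (adjusted p = 3.56e-05), and by 0.98 without OIM replicate 2. With bFGF it fell by 2.42 ± 0.12, or 5.37-fold (adjusted p = 6.30e-13), to below the control level. The 817 exonic bases that ACAN shares with HAPLN3, a link protein gene on the opposite strand, could send reads to either gene if strand was not used in counting. HAPLN3 moved the other way, from 11.2 CPM in OIM to 18.8 CPM with bFGF (log2 fold change 0.75, adjusted p = 5.09e-07).

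Decorin and biglycan carry chondroitin or dermatan sulfate chains and bind collagen and TGF-beta. DCN had 508, 495 and 489.8 CPM in the control libraries, 430.2, 413 and 431 CPM in the OIM libraries, and 221, 212 and 208 CPM in the bFGF libraries. The 3 groups did not overlap and stepped down in that order. DCN differed by -0.23 ± 0.035 in OIM against control (adjusted p = 1.47e-04, under the fold limit) and fell by 0.99 ± 0.036 with bFGF, or 1.99-fold (adjusted p = 3.91e-15).

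BGN had 2186, 2490.2 and 2309.5 CPM in the control libraries, 2639, 2392 and 2430.3 CPM in the OIM libraries, and 1764, 1815 and 1693 CPM in the bFGF libraries. Control and OIM libraries overlapped, and the bFGF libraries lay below. BGN differed by 0.095 ± 0.045 in OIM against control (adjusted p = 0.185). With bFGF it fell by 0.50 ± 0.045, or 1.42-fold (adjusted p = 5.19e-09), just inside the fold limit. The call was lost without OIM replicate 1 (-0.46) or bFGF replicate 3 (-0.48), and with library totals in place of TMM (-0.28).

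Lumican and fibromodulin can carry keratan sulfate chains and bind collagen, and prolargin binds heparin and collagen. LUM had 756, 724 and 747 CPM in the control libraries, 658, 650.5 and 659.5 CPM in the OIM libraries, and 686, 663 and 635 CPM in the bFGF libraries. The OIM libraries lay below the control libraries and inside the range of the bFGF libraries. LUM differed by -0.18 ± 0.034 in OIM against control (adjusted p = 0.0013, under the fold limit) and by 0.011 ± 0.034 between bFGF and OIM (adjusted p = 0.785). With library totals in place of TMM the latter was 0.23.

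FMOD had 3863, 4031 and 3954 CPM in the control libraries, 4265, 3649 (OIM replicate 2) and 4244 CPM in the OIM libraries, and 1823, 1922 and 1823 CPM in the bFGF libraries. Control and OIM overlapped, with OIM replicate 2 the lowest of the 6. FMOD differed by 0.037 ± 0.046 in OIM against control (adjusted p = 0.664) and fell by 1.13 ± 0.047 with bFGF, or 2.18-fold (adjusted p = 3.02e-14).

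PRELP had 979.6, 1070.1 and 1004 CPM in the control libraries, 1165, 1046 and 1074 CPM in the OIM libraries, and 843, 873 and 836 CPM in the bFGF libraries. The bFGF libraries lay below all others. PRELP differed by 0.10 ± 0.041 in OIM against control (adjusted p = 0.104) and by -0.36 ± 0.041 between bFGF and OIM (adjusted p = 1.66e-07), which did not reach the fold limit. With library totals in place of TMM the latter was -0.14.

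Osteoglycin and asporin are small leucine-rich proteins first known from bone and cartilage, and asporin binds TGF-beta and collagen. OGN had 35.7, 35.6 and 35.2 CPM in the control libraries, 24.6, 27.8 and 25.3 CPM in the OIM libraries, and 15.3, 14.8 and 12.7 CPM in the bFGF libraries. The groups stepped down without overlap, as for DCN. OGN differed by -0.45 ± 0.070 in OIM against control (adjusted p = 1.64e-04, under the fold limit, and -0.51 and called without OIM replicate 2). It fell by 0.86 ± 0.074 with bFGF, or 1.82-fold (adjusted p = 2.48e-09).

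ASPN had 243, 239 and 235 CPM in the control libraries, 232, 219 and 248 CPM in the OIM libraries, and 31.9, 35.8 and 28.0 CPM in the bFGF libraries. Control and OIM overlapped, and no bFGF library came near them. ASPN differed by -0.038 ± 0.058 in OIM against control (adjusted p = 0.740) and fell by 2.87 ± 0.065 with bFGF, or 7.30-fold (adjusted p = 4.18e-18), the smallest adjusted p of the 10.

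PODN, a collagen-binding member of a separate class, had 8.26, 9.75 and 9.07 CPM in the control libraries. The OIM libraries had 15.9, 8.53 (OIM replicate 2) and 13.8 CPM, and the bFGF libraries had 0.951, 1.04 and 0.769 CPM, from 40 to 54 counts each. OIM replicate 2 lay within the control range, while the other OIM libraries lay above it. PODN differed by 0.49 ± 0.16 in OIM against control (adjusted p = 0.0471, just under the fold limit). Without OIM replicate 2 the difference was 0.72 (adjusted p = 3.61e-05) and was called, while without OIM replicate 1 it was 0.30 (adjusted p = 0.28). The adjusted p was above 0.05 when any library other than OIM replicate 2 was left out (0.0565 to 0.28), in the fit on these groups alone (0.063) and with a replicate block (0.0712). With bFGF, PODN fell by 3.79 ± 0.21, or 13.8-fold (adjusted p = 2.70e-12).

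The third comparison set bFGF in osteogenic medium against the untreated control. It shares libraries with the other comparisons, so its values are given for their own sake. Of the 10 genes, 7 were called lower, where 20.0% of all genes tested were, and 0 were called higher, where 18.9% were. All 10 had every bFGF library below every control library, which held for 37.3% of genes tested. The median log2 fold change was -1.15, against -0.016 over all genes. PODN fell by 3.29 ± 0.21 (adjusted p = 2.46e-11), ASPN by 2.91 ± 0.065 (adjusted p = 2.66e-18) and ACAN by 1.61 ± 0.12 (adjusted p = 3.57e-10). OGN fell by 1.32 ± 0.073, DCN by 1.22 ± 0.036, FMOD by 1.09 ± 0.047 and VCAN by 0.99 ± 0.037, with adjusted p of at most 2.71e-12. BGN (-0.41 ± 0.045), PRELP (-0.26 ± 0.041) and LUM (-0.17 ± 0.034) stayed under the fold limit. With library totals in place of TMM they were -0.18, -0.034 and 0.057, so that LUM changed sign. The plot of log2 fold changes sets the 3 comparisons side by side for each gene.

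**Figure D2:**
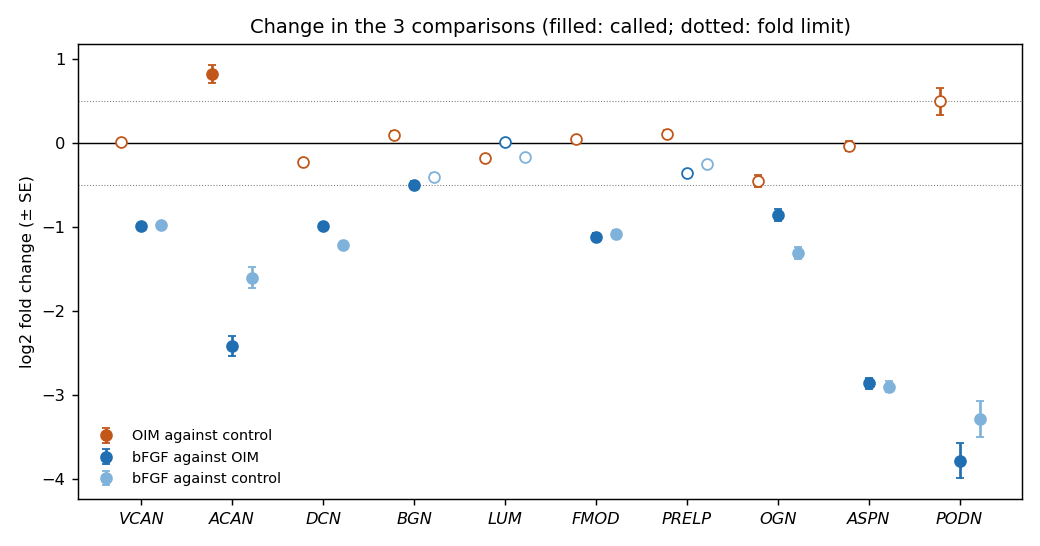
Log2 fold change with its SE for the 10 genes in OIM against control, bFGF against OIM and bFGF against control; filled points were called and the dotted lines mark the fold limit of 0.5. PODN, ASPN and ACAN lie lowest with bFGF, and ACAN is the only filled point above 0.

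To set one gene beside another, CPM were divided by the length of the longest annotated transcript, in kb. In the control group the level per kb ran from FMOD (1235 ± 26.3 CPM per kb, SD, n = 3) through BGN (1017 ± 66.9), VCAN (412 ± 17.4), LUM (383 ± 8.53), DCN (335 ± 6.25) and PRELP (263 ± 12.1) to ASPN (85.6 ± 1.44). OGN (10.7 ± 0.0835), ACAN (3.45 ± 0.141) and PODN (2.91 ± 0.241) lay far below. No neighbours in this order had overlapping libraries in the control group. VCAN transcripts run from 7366 to 12085 bases, and with the shortest its level would be 677 CPM per kb. For OGN, with 897 to 3309 bases, it would be 39.6 CPM per kb. Both genes keep their place in the control order with these lengths.

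In the OIM group the order by mean was the same, but the libraries of 3 neighbouring pairs overlapped and could not be ranked. These were FMOD (1141 to 1334 CPM per kb) and BGN (1045 to 1152), DCN (278 to 290.2) and PRELP (269.7 to 300.4), and ACAN (4.65 to 6.93) and PODN (2.75 to 5.12). With bFGF the order changed. BGN was first (767 ± 26.7 CPM per kb), followed by FMOD (580.3 ± 17.9), LUM (341 ± 13.1), PRELP (219 ± 5.14), VCAN (208 ± 2.21) and DCN (144 ± 4.75), with no overlap between neighbours at this length. ASPN was at 11.4 ± 1.40 CPM per kb, OGN at 4.31 ± 0.408, ACAN at 1.13 ± 0.168 and PODN at 0.296 ± 0.0441. Here the order depends on the transcript: with the shortest, VCAN would be at 341 CPM per kb, level with LUM and above PRELP (226), and OGN at 15.9, above ASPN (12.3).

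The sum of the 10 levels was 3748 ± 110 CPM per kb in the control group, 3777 ± 198 in OIM and 2277 ± 58.7 with bFGF. Within that sum, the share of BGN was 27.1% ± 0.988 in control, 28.8% ± 0.942 in OIM and 33.7% ± 0.315 with bFGF. LUM held 10.2%, 8.97% and 15.0%, and PRELP held 7.00%, 7.48% and 9.64%, in the same order of groups. FMOD went the other way, with 33.0%, 33.5% and 25.5%, as did ASPN, with 2.29%, 2.21% and 0.501%. These shares add to a whole, so a fall in one raises the others, and they were not tested.

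Ratios of counts within a library do not depend on how libraries are scaled. There were 10.0 ± 0.537 VCAN counts for each DCN count in control, 11.8 ± 0.291 in OIM and 11.8 ± 0.262 with bFGF, so the last groups overlapped. BGN to DCN was 4.68 ± 0.363, 5.86 ± 0.250 and 8.23 ± 0.308, with no overlap between groups. ASPN to DCN was 0.480 ± 0.0015, 0.548 ± 0.0237 and 0.149 ± 0.0177, lowest with bFGF. Further ratios were chosen after the values had been seen. LUM to DCN was 1.49, 1.55 and 3.09 in the 3 groups, and FMOD to PRELP was 3.88, 3.70 and 2.18. These ratios are descriptions, with no test.

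Most of the small leucine-rich genes sit in clusters with related genes, and these neighbours were read beside the members. On chromosome 5, DCN, LUM, KERA and EPYC follow each other on the plus strand within 199 kb (chr5:91678601-91877779). DCN fell with bFGF and LUM, the next gene, differed by 0.011. KERA (keratocan) was near the limit of detection, at 0.248 CPM in OIM (11 to 19 counts). EPYC (epiphycan) was low, at 1.26 CPM in OIM (65 to 84 counts). Every bFGF library of EPYC lay below every OIM library (-0.62 ± 0.31). Neither gene was called (adjusted p = 0.0728 and 0.0869).

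On chromosome 3, OGN, OMD, ASPN and ECM2 lie on the minus strand within 127 kb (chr3:42116521-42243746), inside the span of CENPP on the other strand but sharing none of its exonic bases. All 4 fell with bFGF. OMD (osteomodulin) fell from 17.0 ± 0.503 to 9.51 ± 2.00 CPM (log2 fold change -0.84 ± 0.11, adjusted p = 1.07e-06), and ECM2 from 83.2 ± 3.71 to 16.8 ± 0.876 CPM (-2.31 ± 0.055, adjusted p = 8.18e-18). The size of the fall was unequal along the cluster: ASPN to OGN counts were 6.73 in control, 9.03 in OIM and 2.24 with bFGF, a ratio also chosen after the values were seen.

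On chromosome 9, FMOD lies on the minus strand and PRELP and OPTC (opticin) on the plus strand within 158 kb (chr9:64062995-64220982). FMOD was called lower, while PRELP went the same way (-0.36) but stayed under the fold limit. OPTC was at 0.614 CPM in OIM and 0.501 CPM with bFGF, and it was not called (-0.29 ± 0.49, adjusted p = 0.623). Its OIM libraries, with 56, 39 and 12 counts, spread over the range of the bFGF libraries, with 22 to 30. BGN (chrX:124282048-124295450), ACAN (chr7:54449830-54520606) and PODN (chr6:159155251-159179456) lie apart from these clusters. The bar plot of neighbours shows the unequal falls.

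**Figure D3:**
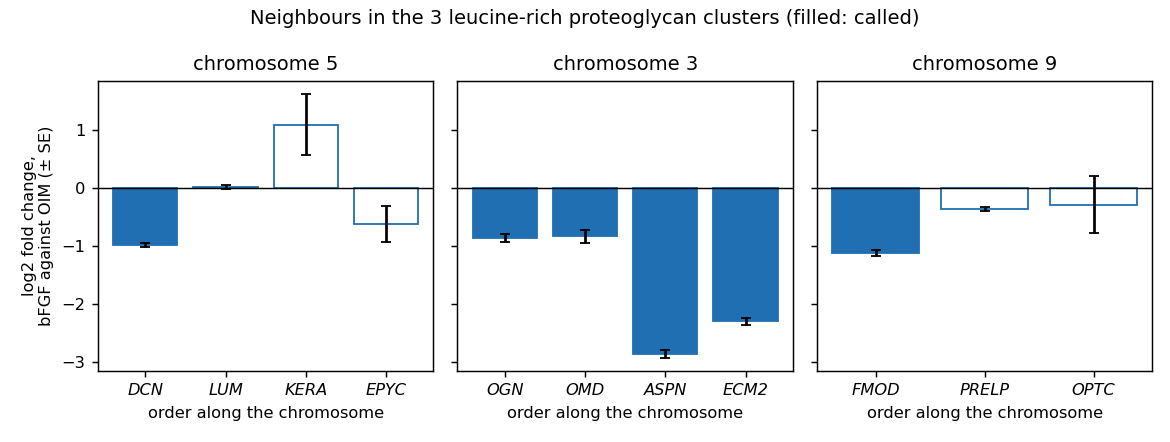
Log2 fold change with its SE in bFGF against OIM for the genes of the 3 clusters, in their order along each chromosome; filled bars were called. All 4 genes on chromosome 3 were called lower. DCN was called lower while LUM, next to it, was near 0. FMOD was called lower, and PRELP went the same way by less, under the fold limit.

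The circles of VCAN were counted apart from the gene row. The exon 8 circle had 31, 28 and 20 counts in the control libraries, 34, 33 and 46 in OIM, and 13, 27 and 7 with bFGF. Set against VCAN itself, this was 91.6 ± 25.4 per 1000000 VCAN counts in control, 128 ± 24.5 in OIM and 119 ± 79.3 with bFGF, and the groups overlapped in each comparison (two-sided exact permutation tests, p = 0.2 to 0.8). With 3 against 3 libraries the smallest p is 0.1, so these tests could not reach the threshold whatever the counts. The exon 8 to exon 12 circle had 12, 26 and 22 counts in control, 14, 15 and 13 in OIM, and 2, 5 and 5 with bFGF. Relative to VCAN it was 67.6 ± 19.2, 47.6 ± 3.53 and 30.5 ± 13.7 per 1000000 VCAN counts, and the bFGF libraries lay below all others (exact permutation p = 0.1 against either group, the smallest possible).

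Over all 11 circles on its strand, VCAN gave 0.974 ± 0.129 CPM of back-spliced reads in control, 1.06 ± 0.160 in OIM and 0.439 ± 0.219 with bFGF. Set against VCAN, this was 195 ± 17.5 in control, 211 ± 22.7 in OIM and 175 ± 87.9 with bFGF per 1000000 VCAN counts (exact permutation p = 0.6 for bFGF against OIM and 0.8 against control). Circles entered the table only from 2 counts in a library, so a 0 there is not a measured absence. Inside the other members, no circle had its ends at annotated exon boundaries: BGN had 4, and LUM, FMOD and PRELP 1 each, all on the opposite strand and with at most 5 counts in a library. None was listed inside ACAN, DCN, OGN, ASPN or PODN.

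**Figure D4:**
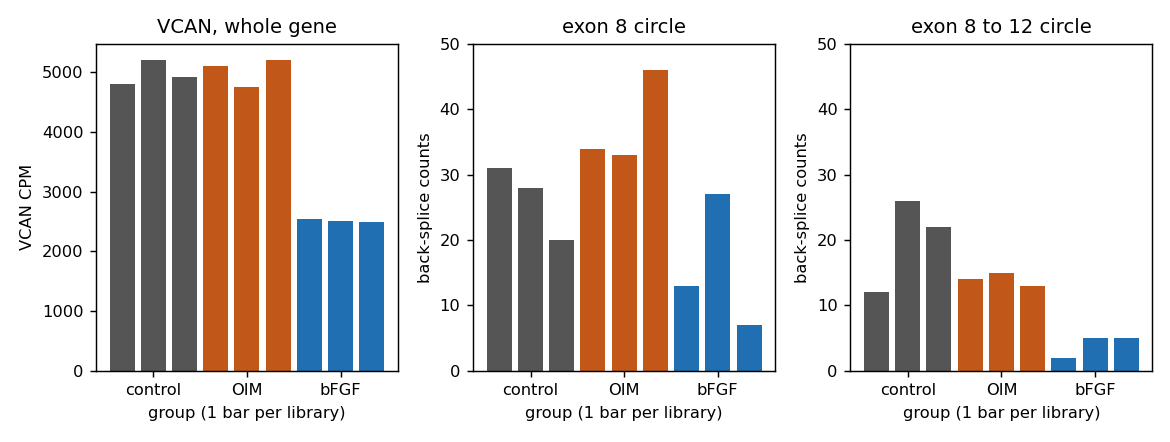
VCAN CPM (left) and back-splice counts of the exon 8 circle (middle) and of the exon 8 to exon 12 circle (right), 1 bar per library, not scaled for library size in the middle and right panels. The exon 8 to exon 12 circle has 2 to 5 counts in each bFGF library, against 12 to 26 elsewhere.

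Other genes of the proteoglycan pathway were read from lists, and OIM against control gave 0 calls among the 63 tested genes of 9 lists by edgeR's quasi-likelihood test, where 1.49% of all genes tested were higher and 0.864% lower. So few genes leave 0 near that share. At an unadjusted p under 0.05, 17 of them were higher and 11 lower, where 14.2% and 12.0% of all genes tested were. DESeq2 called 1 (ADAMTS15, lower), where it called 1.75% of all genes higher and 0.967% lower. With bFGF against OIM, 5 of 9 tested further small leucine-rich proteoglycans and hyalectans fell and 0 rose (median log2 fold change -0.69). Over all genes tested 18.4% fell and 17.7% rose in this comparison (median -0.0029), and each count of the lists below stands beside these shares. Beside ECM2 and OMD, PODNL1, the closest relative of PODN, fell from 29.1 to 6.11 CPM (-2.25 ± 0.098), and CHAD (chondroadherin) fell from 5.78 to 1.78 CPM (-1.70 ± 0.16). NCAN and BCAN, the hyalectans of brain, were at or near 0 and were not tested.

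Of 9 tested link proteins and matrix partners, 2 rose and 3 fell (median -0.27), where 17.7% and 18.4% of all genes did. HAPLN1, which locks versican and aggrecan onto hyaluronan, rose from 6.98 ± 1.48 to 19.0 ± 0.558 CPM (log2 fold change 1.45 ± 0.12, adjusted p = 7.95e-10). FBN1 and FBLN2, matrix proteins that bind versican, were called lower: FBN1 fell from 4623 ± 351 to 1669 ± 23.3 CPM (-1.47 ± 0.044, adjusted p = 2.35e-16) and FBLN2 from 1022 ± 80.7 to 374 ± 19.2 CPM (-1.45 ± 0.051, adjusted p = 2.51e-15). TNC, another partner of versican, was at 1081 ± 110 CPM in OIM and 1416 ± 30.4 with bFGF (0.39 ± 0.054, adjusted p = 2.39e-06, under the fold limit). HAPLN1 counts were 0.00153 ± 3.83e-05 of VCAN counts in control, 0.00139 ± 2.98e-04 in OIM and 0.00757 ± 1.60e-04 with bFGF, a ratio chosen after its values were seen.

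Of 6 enzymes that build the linkage between core protein and chain, 1 rose: FAM20B, the xylose kinase, went from 55.2 to 82.9 CPM (0.59 ± 0.042), and 0 fell. A count of 1 in 6 is near the 17.7% of all genes that rose. B3GALT6, which adds a galactose of the linkage, differed by 0.37 ± 0.093 and was called higher against control (0.55 ± 0.094). Of 5 tested enzymes that extend chondroitin chains, 2 fell, where 18.4% of all genes did, and 0 rose: CHSY3 went from 55.6 to 16.0 CPM (-1.79 ± 0.073) and CSGALNACT1, which adds the first chondroitin sugar, from 48.6 to 19.9 CPM (-1.29 ± 0.072). CHSY1, a chain polymerase with a higher CPM, was at 259 CPM in OIM and 313 CPM with bFGF (0.27 ± 0.036, under the fold limit), and was called higher against control (0.52 ± 0.036, adjusted p = 6.74e-11). Of 9 tested sulfotransferases and epimerases of chondroitin and dermatan sulfate, 2 fell, near the 18.4% of all genes, and 0 rose, with CHST12 at -1.24 ± 0.10 and UST at -0.67 ± 0.050. Against control the same list split, with 2 lower, CHST12 (-1.19 ± 0.10) and CHST3 (-0.53 ± 0.040), and 2 higher, DSEL (0.57 ± 0.039) and CHST11 (0.55 ± 0.075), where 20.0% of all genes were lower and 18.9% higher. Against OIM, CHST3 (-0.49 ± 0.040) was under the fold limit.

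Among 4 tested enzymes of keratan sulfate, the chain that lumican and fibromodulin can carry, 1 rose and 2 fell, where 17.7% of all genes rose and 18.4% fell. CHST2, a sulfotransferase, rose from 6.85 ± 1.77 to 34.3 ± 0.789 CPM (2.32 ± 0.12, adjusted p = 7.88e-13), B3GNT7 fell from 6.66 to 1.42 CPM (-2.23 ± 0.18) and B4GALT1 differed by -0.52 ± 0.037, also a call. Of 4 tested genes of sulfate supply, PAPSS2, which makes the activated sulfate donor, rose from 229.9 ± 19.95 to 414 ± 4.16 CPM (0.85 ± 0.046, adjusted p = 1.90e-12), and 0 fell. A count of 1 in 4 differs by less than 1 gene from the share of all genes that rose.

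The ADAMTS proteases that cut versican and aggrecan split by direction. Of 8 genes tested, with the inhibitor TIMP3 among them, 3 rose, where 17.7% of all genes did, and 4 fell, where 18.4% did. ADAMTS4 had 68.3 ± 5.75 CPM in control, 83.4 ± 9.38 in OIM and 297 ± 1.09 with bFGF (1.83 ± 0.064 against OIM, adjusted p = 2.08e-15). ADAMTS5 had 93.2 ± 6.90 CPM in control, 87.5 ± 6.19 in OIM and 19.1 ± 0.658 with bFGF (-2.20 ± 0.062, adjusted p = 1.15e-16). ADAMTS9 fell from 190.1 ± 5.82 to 59.1 ± 1.31 CPM (-1.68 ± 0.040, adjusted p = 9.52e-18). ADAMTS4 to ADAMTS5 counts were 0.733 ± 0.0275 in control, 0.952 ± 0.0559 in OIM and 15.6 ± 0.546 with bFGF, again a ratio chosen after the values were seen. In the lysosome, 2 of 9 enzymes that degrade these chains were called lower, again near the share of all genes, and 0 higher. Without the fold limit the list moved more evenly. At an unadjusted p under 0.05, 8 of 9 were lower, where 34.9% of all genes tested were. In 8 of 9, every bFGF library lay below every OIM library, which held for 35.8% of genes tested. Their median log2 fold change was -0.33. IDUA fell by 0.91 ± 0.049 and HEXA by 0.53 ± 0.038. Against control, bFGF gave 12 genes higher and 22 lower among the 63 of the 9 lists, where 18.9% of all genes tested were higher and 20.0% lower, with 3 higher and 4 lower among the ADAMTS list.

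**Figure D5:**
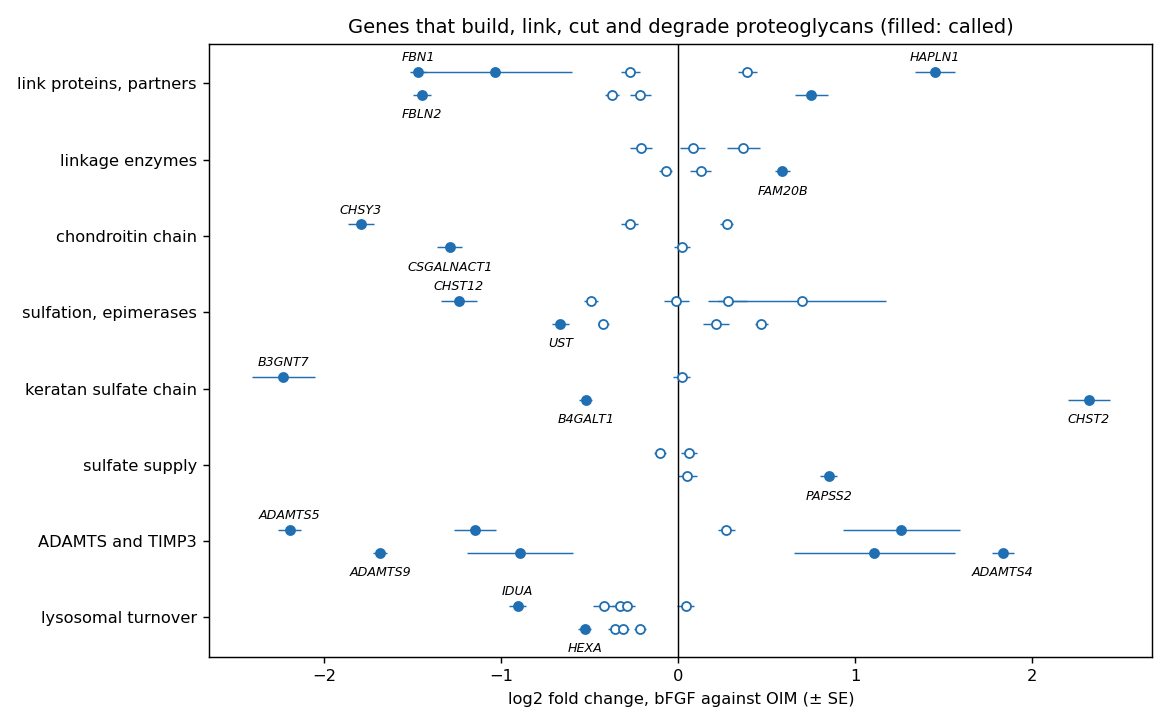
Log2 fold change with its SE in bFGF against OIM for the tested genes of 8 lists of proteoglycan partners and enzymes; filled points were called, and up to 3 called genes per list, those with the largest change, are named. ADAMTS4, CHST2 and HAPLN1 lie to the right, and ADAMTS5, B3GNT7 and CHSY3 to the left.

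Levels of cell type markers moved with bFGF too, read against the 17.7% of all genes that rose and the 18.4% that fell. Of 8 interstitial markers, 3 fell against OIM, COL1A1 (-1.34), COL1A2 (-1.004) and COL3A1 (-0.72), and 2 rose, S100A4 (0.82) and VIM (0.66). PDGFRA (-0.059), PDGFRB (0.13) and THY1 (-0.40) were not called. The summed CPM of all 8 was 60397 to 69055 in the control and OIM libraries and 36759 to 37081 with bFGF. The collagen genes made up most of that sum, with COL1A1 alone at 25047 CPM in OIM and 9886 CPM with bFGF. The endothelial markers summed to 20.1 to 23.0 CPM in the control and OIM libraries and to 33.0 to 35.9 CPM with bFGF, where 5 of 7 tested rose. The largest changes were at low levels, KDR from 0.169 to 1.17 CPM (2.73), CLDN5 from 0.0601 to 0.336 CPM (2.50) and TEK from 0.740 to 1.52 CPM (1.04), and PECAM1 went from 11.8 to 20.7 CPM (0.81), while VWF stayed at or below 0.586 CPM in all libraries. The 7 macrophage markers summed to 14.5 to 18.0 CPM in the control and OIM libraries and to 8.86 to 9.56 CPM with bFGF, with CD14 and CD163 called lower (2 of 5 tested). Of the chondrocyte markers, SOX9 was at 113 to 149 CPM, COL2A1 did not exceed 0.438 CPM, and COL11A2 was at 0 in all OIM and bFGF libraries. MATN3 (-2.68, from 1.15 to 0.178 CPM) and COMP (-1.42, from 1.01 to 0.375 CPM) fell with bFGF (2 of 4 tested), both at low levels. MATN3 was called higher in OIM against control (1.17, adjusted p = 0.0447), from 0.510 CPM in control. The part of these shifts in the levels of the 10 genes was not tested.

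As a last description, the gene whose log2 CPM ran most alike over the 9 libraries was sought for each member. The 9 points form 3 group clusters, mainly bFGF against the rest, so a high Pearson's r is common: 302 to 2004 genes exceeded 0.95 for each member except LUM, for which 3 did. The closest genes were COL3A1 for VCAN (r = 0.999), HHIPL1 for ACAN (r = 0.998), PRRX1 for DCN (r = 0.999) and MYL9 for FMOD (r = 0.9996). They were ARID1B for PRELP (r = 0.995), PHLDA1 for OGN (r = 0.995), HIF1A for ASPN (r = 0.999) and RFLNB for PODN (r = 0.999). LUM was closest to TLR4 (r = 0.977), and its highest r with another member was 0.706, with OGN.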

How the data were processed

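Total RNA of PVICs was sequenced in 9 libraries (3 per group), and groups were taken from the sample labels. The authors deposited 1 table of counts without normalization: 19535 genes with whole-number counts, 9888 non-coding transcripts with estimated counts (44.6% of values not whole, not used here) and 6179 circRNAs with whole counts, and 19 unnamed empty columns that were not used. The submitters' processing notes list Trimmomatic, HISAT2, StringTie and Sscrofa11.1, and the labels name a stranded total RNA kit with removal of ribosomal RNA; the paper's methods name Cutadapt, STAR, a poly-A kit and a shorter treatment. The counter and its strand setting are not given in the sources used here.

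Gene counts were filtered with filterByExpr, scaled by TMM and tested in 1 model of 3 groups (6 residual degrees of freedom) with the quasi-likelihood test of edgeR 4.0.16 in R 4.3.3. SE is the log2 fold change divided by the square root of F. Replicates varied by a common biological coefficient of variation of 0.0602, beyond counting error in all but low genes. CPM were computed from the counts, and lengths, positions and junction bases came from the RefSeq annotation and genome of Sscrofa11.1. DESeq2 1.42.0, other scalings, filters and fold limits, fits on the 2 groups compared, a replicate block and leaving out each library were alternatives. No library was a copy of another.

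The 10 genes, the 13 further lists and the tests were chosen with earlier results of these data known. From each list, genes called in any comparison were named, at most the 3 with the largest change in bFGF against OIM; all cluster neighbours and, for each member, the gene most alike were named. HAPLN3, TNC, DSEL, CHST11, ADAMTS15, TIMP3, NCAN, BCAN, PECAM1, COL3A1 and VIM as markers, SOX9, VWF, COL2A1 and COL11A2 were named in addition, after their values were seen. The gene most alike to BGN and a gene of the lists are not reported here.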

Additional observations from a re-analysis of the deposited data

How the results depend on the processing

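The fall of 8 members in bFGF against OIM was 7 to 8 when 1 library was left out and 4 at a fold limit of 1 on the log2 scale. In OIM against control, members called higher numbered 2 with median-of-ratios size factors, with DESeq2 and with no fold limit, 0 at a fold limit of 1, and 1 to 2 without 1 library; members called lower numbered 3 with no fold limit and 0 to 1 without 1 library. Only small differences changed sign. In OIM against control these were VCAN (-0.017 to 0.050 without 1 library, below 0 without control replicate 1 (-0.016) and without OIM replicate 1 (-0.0019) or 3), FMOD (-0.0010 without OIM replicate 1, to 0.11 without OIM replicate 2) and ASPN (-0.084 without OIM replicate 3, to 0.0074 without OIM replicate 2). LUM was -0.0076 in bFGF against OIM with a filter of at least 10 CPM in 3 libraries and -0.017 (without bFGF replicate 1) to 0.039 (without bFGF replicate 3); with library totals alone it was 0.23 (adjusted p = 6.26e-06) in bFGF against OIM and 0.057 in bFGF against control, where BGN was -0.18 and PRELP -0.034 (-0.14 against OIM). The log2 ratio of VCAN to DCN, bFGF minus OIM, was -0.0050, and -0.024 to 0.012 without 1 library. With the union of exons as length, VCAN was at 393 and OGN at 10.5 CPM per kb in the control group. Library totals alone moved the median of all genes by 0.22 with bFGF and the calls to 3733 higher and 1694 lower against OIM (2420 and 2519 with TMM) and to 3931 and 1840 against control (2584 and 2739); 68.8% and 68.1% of calls were then higher, where TMM gave 49.0% and 48.5%. With no fold limit the calls over all genes were 1051 and 802 in OIM against control (203 and 118 with the limit), 4620 and 4583 in bFGF against OIM, and 4709 and 4881 in bFGF against control; at a limit of 1 they were 63 and 28, 1216 and 1245, and 1339 and 1417. The filter at 10 CPM, under which PODN could not be fitted, gave 116 and 46, 1634 and 1624, and 1746 and 1737. Same-numbered libraries did not deviate together (correlations -0.032 to 0.0035). This cannot show whether they shared a culture, which the labels do not say, and the main model did not pair them. With a replicate block the calls were 195 and 114, 2413 and 2504, and 2572 and 2713, and 8 members fell in bFGF against OIM. The causes of these changes were not tested.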
